A study of Mus musculus with 6 samples.

Results

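The genes described here are 10 mucins and goblet cell products, chosen by name: the secreted products Muc2, Tff3, Fcgbp, Agr2, Spink4 and Zg16 and the membrane mucins Muc3, Muc13, Muc1 and Muc4. They were read on 6 whole-transcript arrays of duodenum, 3 from Apc+/- mice and 3 from Apc+/-Atg7-/- mice, by matching their symbols to the annotation of the array's probe sets. Of the 10 genes, 9 had a probe set of their own, 1 each, and these 9 belong to the 19938 genes tested. Fcgbp, which codes for a large mucus protein that binds to the Muc2 network, was found only on 3 probe sets that also carry other symbols, so no value is given for it. All mice were of C57Bl6 background and carried 1 altered Apc allele, so the genotypes differ in Atg7 alone as far as the labels say. The tissue was labelled as normal duodenum, and the labels name no treatment, age or sex. The labels do not say which exons of Atg7 were deleted, nor whether deletion was limited to the epithelium, which limits what Apc+/-Atg7-/- duodenum stands for as a model.

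Goblet cells are the mucus-secreting cells of the intestinal epithelium. They pack the gel-forming mucin Muc2 into granules after folding and disulfide linkage in the endoplasmic reticulum and dense O-glycosylation in the Golgi, and release it with smaller proteins that shape or guard the mucus. Membrane mucins are different molecules: they stay anchored in the apical membrane, where they form the glycocalyx, and enterocytes carry several of them. Atg7 activates the ubiquitin-like proteins from which autophagosomes are built, and autophagy proteins are known to take part in goblet cell granule release.

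Promoter sequence is shown for the membrane mucin with the largest difference between genotypes, Muc3, and for the secreted gel-former Muc2, whose difference was smaller. Both are the 250 bases before the annotated start, written 5′ to 3′ on the gene's strand, from RefSeq (GRCm38.p6), at chr5:137166047-137166296 (minus strand) for Muc3 and chr7:141690090-141690339 (plus strand) for Muc2. Capitals mark, in Muc3, a direct repeat of the nuclear receptor half-site (AGGTCA, then any base, then AGGTC), and, in Muc2, the E-box CAGCTG, a motif of the kind that basic helix-loop-helix factors such as Atoh1 bind.
Muc3: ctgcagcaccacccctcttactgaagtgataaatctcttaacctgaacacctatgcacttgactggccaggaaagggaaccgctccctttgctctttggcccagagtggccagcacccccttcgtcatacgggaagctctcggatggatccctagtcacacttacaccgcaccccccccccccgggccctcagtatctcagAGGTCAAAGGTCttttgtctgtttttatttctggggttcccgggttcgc
Muc2: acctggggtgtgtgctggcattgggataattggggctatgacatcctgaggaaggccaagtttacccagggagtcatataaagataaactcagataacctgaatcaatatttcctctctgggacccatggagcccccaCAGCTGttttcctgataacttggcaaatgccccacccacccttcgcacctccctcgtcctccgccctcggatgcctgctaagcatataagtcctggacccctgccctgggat

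Of the 10 genes, 7 matched the RefSeq promoter table, in 8 windows, since Muc13 has 2, and Tff3, Spink4 and Zg16 did not match. The repeat marked in Muc3 lies 49 to 38 bases before the start, and 25 of 32851 windows of this length in the table (0.0761%) held it on either strand. It was searched for after the Muc3 sequence had been read, and it contains the half-site AGGTCA, which stood in 14.0% of all windows and in 3 of the 8, those of Muc3 and both of Muc13. The E-box CAGCTG stood in 13.0% of all windows and, among the 8, in those of Muc2 and Fcgbp. The letters TTTAT, the core that the intestinal factors Cdx1 and Cdx2 bind, stood in 6 of the 8 and in 37.3% of all windows, and every TATAAA match (3 of the 8, 12.4% of all) contains a match to them on the other strand. The forkhead motif TGTTTNC stood in 3 of the 8 and in 17.8% of all windows, and the interferon response element (GAAA, any 2 bases, GAAA) in 0 of the 8 and in 2.98% of all. Both strands were searched for each motif. These matches describe letters in a window and show no binding.

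Medians per array ran from 6.43 to 6.56 on the log2 scale, and r between any pair of arrays, over all probe sets, was 0.989 to 0.994. Arrays give no read depth, and 3 per genotype limit the precision. The enterocyte markers Sis and Fabp1 and the duodenal hormone gene Gip, which mark the labelled tissue, lay in the brightest 25% of genes. For Atg7 itself the mean log2 signal (SD, n = 3) was 7.16 ± 0.11 with Atg7 and 6.63 ± 0.16 without, the genotypes did not overlap, and the difference of -0.53 did not pass by limma (adjusted p = 0.242). Where that probe set lies relative to the deleted exons is not known. Apc+/-Atg7-/- replicate 1 had Xist at 4.58 (log2) and Eif2s3y, a gene of the Y chromosome, at 8.44, as in a male, while Xist was 10.1 to 10.3 on the other arrays. By these genes that array differs in sex from the other 5. Without it, genes called over all genes went from 22 to 2.

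Among these mucins and goblet cell products, Muc3 and Spink4 had the largest differences between genotypes, both lower in Apc+/-Atg7-/- duodenum, and neither passed the test over all genes. By limma, 0 of the 9 genes passed an adjusted p of 0.05, against 0.0401% of all genes tested that passed as lower and 0.0702% as higher. At an unadjusted p under 0.05, 2 of the 9 were lower (Muc3 and Spink4) and 0 higher, where 2.73% and 2.38% of all genes were (5.11% in either direction). For 3 of the 9 (Muc3, Spink4 and Tff3) the genotypes did not overlap and Apc+/-Atg7-/- was lower, as for 5.23% of all genes, and for 0 of the 9 it was higher without overlap (4.81% of all genes). Signs were mixed, with 6 of 9 genes below 0 where 56.8% of all genes were. Without Apc+/-Atg7-/- replicate 2, 1 gene passed, Muc3.

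**Figure D1:**
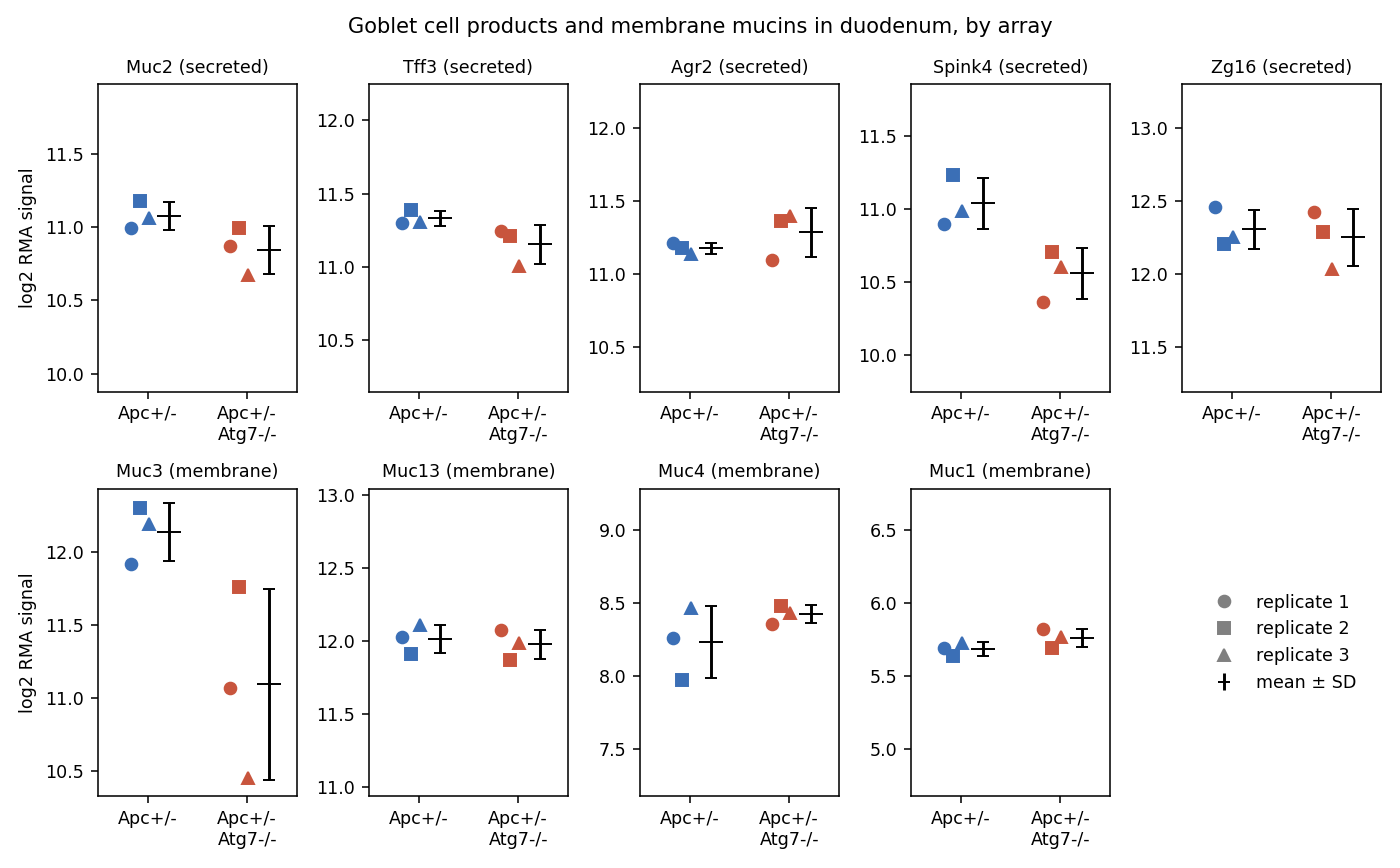
Log2 RMA signal (y axis) of the 9 measured genes in 3 Apc+/- arrays (blue) and 3 Apc+/-Atg7-/- arrays (red), with marker shape for the replicate number and black bars for the mean ± SD; each panel spans the same number of log2 units. Muc3 shows the widest gap and the widest spread, from 10.45 to 11.76 among Apc+/-Atg7-/- arrays, while Muc13 and Muc1 sit on nearly the same level in both genotypes.

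Among the secreted products, Spink4 showed the largest difference. Spink4 is a small Kazal-type inhibitor-like protein of goblet cell granules. Its log2 signal was 10.90, 11.23 and 10.99 in Apc+/- replicates 1 to 3 and 10.37, 10.71 and 10.61 in Apc+/-Atg7-/- replicates 1 to 3. All 3 Apc+/-Atg7-/- arrays lay below the Apc+/- arrays, and replicate 1 was the lowest. The mean went from 11.04 ± 0.17 to 10.56 ± 0.18 (SD, n = 3), 1.39 times lower. The difference of -0.48 (SE 0.12, 95% interval -0.75 to -0.21) had an unadjusted p of 0.00303 by limma and did not pass over all genes (adjusted p = 0.517). With each array left out in turn it ran from -0.55 to -0.38, and the value nearest 0 came without Apc+/- replicate 2.

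Muc2, the gel-forming mucin on which intestinal mucus rests, was 10.99, 11.18 and 11.06 (log2) in Apc+/- and 10.87, 10.99 and 10.67 in Apc+/-Atg7-/- duodenum. The genotypes met at 10.99, where Apc+/- replicate 1 and Apc+/-Atg7-/- replicate 2 lay, and the other Apc+/-Atg7-/- arrays were lower. The difference of -0.23 (SE 0.11, 95% interval -0.47 to 0.01) did not pass by limma (adjusted p = 0.95), and it stood at -0.15 without Apc+/-Atg7-/- replicate 3. Tff3 is a trefoil peptide that goblet cells release with mucin and that aids epithelial repair. Its signal was 11.30, 11.39 and 11.30 in Apc+/- and 11.25, 11.21 and 11.002 in Apc+/-Atg7-/- duodenum. The genotypes did not overlap, though Apc+/- replicate 1 and Apc+/-Atg7-/- replicate 1 lay close together. The difference of -0.18 (SE 0.10, 95% interval -0.39 to 0.04) did not pass by limma (adjusted p = 0.95) and stood at -0.10 without Apc+/-Atg7-/- replicate 3.

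Agr2 and Zg16 showed no difference beyond their spread. Agr2, a disulfide isomerase of the endoplasmic reticulum that Muc2 production requires, was 11.21, 11.18 and 11.14 (log2) in Apc+/- and 11.10, 11.36 and 11.40 in Apc+/-Atg7-/- duodenum. The Apc+/- values lay close together, and the Apc+/-Atg7-/- values lay on both sides of them. The difference was 0.11 (SE 0.10, 95% interval -0.12 to 0.34). It stood at 0.20 without Apc+/-Atg7-/- replicate 1, at 0.07 without replicate 2 and at 0.05 without replicate 3 of that genotype. Zg16 is a lectin that binds the wall of Gram-positive bacteria and keeps them away from the epithelium. Its signal was 12.46, 12.21 and 12.25 in Apc+/- and 12.42, 12.29 and 12.03 in Apc+/-Atg7-/- duodenum, with the ranges largely shared. The difference was -0.06 (SE 0.12, 95% interval -0.33 to 0.21), and its sign turned without Apc+/- replicate 1 (0.02) or Apc+/-Atg7-/- replicate 3 (0.050).

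Among the membrane mucins, Muc3 had the largest difference. Muc3 is a large transmembrane mucin of the enterocyte brush border. Its log2 signal was 11.92, 12.30 and 12.19 in Apc+/- replicates 1 to 3 and 11.07, 11.76 and 10.45 in Apc+/-Atg7-/- replicates 1 to 3. Every Apc+/-Atg7-/- array lay below every Apc+/- array, narrowly so for replicate 2 and by more than 1 log2 unit for replicate 3. The mean went from 12.14 ± 0.20 to 11.09 ± 0.65 (SD, n = 3), 2.06 times lower, which ranked 22 from the lowest among the differences of 19938 genes. The difference of -1.04 (SE 0.27, 95% interval -1.64 to -0.45) had an unadjusted p of 0.00302 by limma and did not pass over all genes (adjusted p = 0.517). The spread among Apc+/-Atg7-/- arrays bears on that: 0.346% of genes had a larger SD there. Without Apc+/-Atg7-/- replicate 2 the difference was -1.37 and passed (adjusted p = 0.0415), and without Apc+/-Atg7-/- replicate 3 it was -0.72 (adjusted p = 0.967). The other 4 arrays, left out in turn, gave adjusted p of 0.332 or more, and the sign held in all 6. For Muc3, Spink4 and Tff3 alike the two-sided exact permutation test over arrays gave p = 0.1, the smallest that 3 against 3 arrays allow. Arrays that do not overlap always give that p, so it restates their separation.

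The other 3 membrane mucins did not differ beyond their spread. Muc13, a transmembrane mucin found on enterocytes and goblet cells, was 12.03, 11.91 and 12.11 (log2) in Apc+/- and 12.07, 11.87 and 11.98 in Apc+/-Atg7-/- duodenum. Its difference was -0.04 (SE 0.10, 95% interval -0.25 to 0.18), and the sign turned without Apc+/- replicate 3 (0.0062) or Apc+/-Atg7-/- replicate 2 (0.014). It was -0.09 without Apc+/- replicate 2 and also without Apc+/-Atg7-/- replicate 1. The interval for Muc13 lay above the whole interval for Muc3. Muc4, a membrane mucin that partners the receptor ErbB2, was 8.26, 7.98 and 8.47 in Apc+/- and 8.36, 8.48 and 8.44 in Apc+/-Atg7-/- duodenum. It was the member with the highest difference, 0.19 (SE 0.12, 95% interval -0.09 to 0.47), and the arrays overlapped. Without Apc+/- replicate 2, the lowest array, it was 0.06, and without Apc+/- replicate 3 it was 0.30 (adjusted p = 0.839 by limma). Muc1, a membrane mucin of many epithelia, lay below the median brightness of genes, at 5.69, 5.64 and 5.73 in Apc+/- and 5.82, 5.69 and 5.77 in Apc+/-Atg7-/- duodenum. Its difference was 0.08 (SE 0.09, 95% interval -0.12 to 0.27), which became 0.045 without Apc+/-Atg7-/- replicate 1. Whether so dim a signal was above background is not known.

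**Figure D2:**
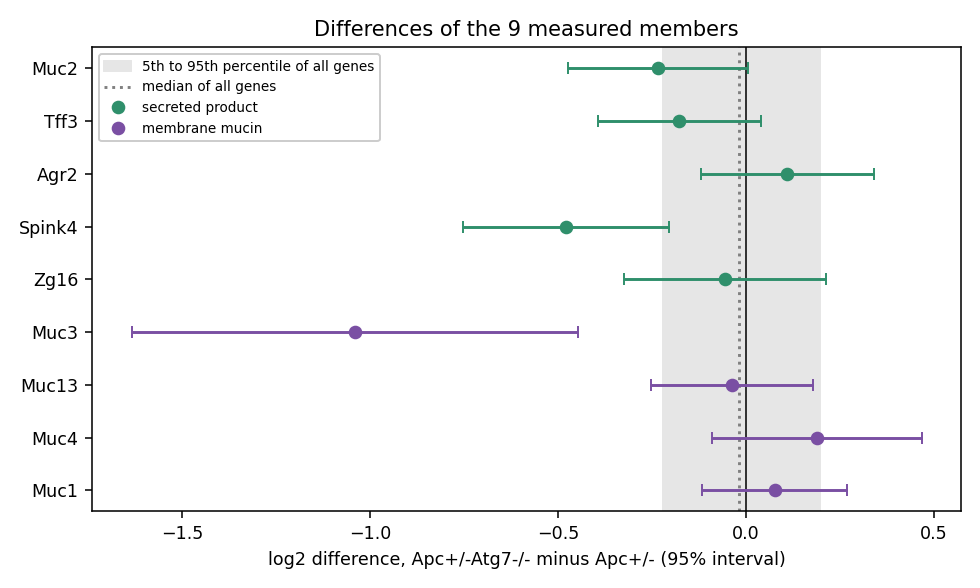
Log2 difference, Apc+/-Atg7-/- minus Apc+/- (x axis), of the 9 measured genes (y axis) with limma's 95% intervals, over the 5th to 95th percentile of all genes (grey) and their median (dotted). The intervals of Muc3 and Spink4 lie below 0, and those of the other 7 genes include 0.

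Set against each other, the secreted products lay mostly below 0 and the membrane mucins were divided. The median difference was -0.18 over the 5 secreted products, 4 of them below 0, and 0.02 over the 4 membrane mucins, 2 of them below 0. Over all genes the median was -0.02, and 56.8% were below 0. These counts include Zg16 and Muc13, whose signs turned when single arrays were left out. The secreted median stood at -0.10 without Apc+/-Atg7-/- replicate 3. The membrane median was at -0.02 without Apc+/- replicate 2 and likewise without Apc+/-Atg7-/- replicate 1. Over Muc13, Muc4 and Muc1 alone, a subset taken after the value of Muc3 was seen, the median was 0.08. The largest difference of the 9 belonged to a membrane mucin, Muc3, and the next to a secreted product, Spink4. The difference between the kinds was not tested. The log2 ratio of Muc3 to Muc2 within an array, of which only the change can be read, was 0.92, 1.12 and 1.12 in Apc+/- and 0.19, 0.77 and -0.22 in Apc+/-Atg7-/- duodenum. It was lower in all 3 Apc+/-Atg7-/- arrays than in any Apc+/- array, with a mean change of -0.81. This pair was set side by side with the differences of both genes known, so the ratio restates them. The log2 ratio of Spink4 to Muc2 had a mean change of -0.25, and there the genotypes overlapped.

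No array was lowest of its genotype for most of these genes. Among Apc+/-Atg7-/- arrays, replicates 1, 2 and 3 were lowest for 3, 2 and 4 of the 9 genes, and among Apc+/- arrays for 4, 4 and 1. The 4 genes lowest in Apc+/-Atg7-/- replicate 3 were Muc2, Tff3, Zg16 and Muc3. The mean deviation of the 5 secreted products from their own means was 0.07, 0.14 and 0.05 in Apc+/- and -0.10, 0.01 and -0.16 in Apc+/-Atg7-/- arrays. Apc+/-Atg7-/- replicate 3 was lowest of its genotype for 13 of 14 enterocyte markers. The mean level of those 14 ran from 11.05 to 11.36 in Apc+/- and from 10.69 to 11.10 in Apc+/-Atg7-/- arrays (log2). In difference, 13 of them were below 0 (56.8% of all genes), with a median of -0.16 and 0 passing by limma.

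Muc3 was compared with single enterocyte genes, since enterocytes carry it. Mep1a, the alpha subunit of the brush border protease meprin A, was 7.89, 7.67 and 7.85 (log2) in Apc+/- and 7.08, 6.92 and 5.97 in Apc+/-Atg7-/- duodenum, with the same array lowest as for Muc3. The difference of -1.15 (SE 0.24) did not pass by limma, at an adjusted p of 0.268, and stood at -0.80 without Apc+/-Atg7-/- replicate 3. Ace, which codes for angiotensin-converting enzyme, and Dpp4, a brush border dipeptidase, did not pass either: by limma, Ace stood at -0.81 (adjusted p = 0.844) and Dpp4 at -0.36 (adjusted p = 0.923). The log2 ratio of Muc3 to Mep1a within an array, a pair picked after their values were seen, was 4.03 to 4.63 in Apc+/- and 3.98 to 4.84 in Apc+/-Atg7-/- arrays, so the genotypes overlapped in it. Other enterocyte genes showed little difference between genotypes, among them Fabp2 (difference -0.01), Vil1 (-0.0029) and Anpep (-0.04). They were taken as examples after their values were seen. Each was still lowest of its genotype in Apc+/-Atg7-/- replicate 3, at -0.03, -0.05 and -0.11 from its own mean over all arrays. Alpi, an enterocyte marker also named after its values were seen, differed by 0.21 and was highest of its genotype in that array, at 10.96. In whole tissue, fewer cells of a type and less RNA per cell cannot be told apart, and the part of enterocyte content in the Muc3 difference was not tested.

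**Figure D3:**
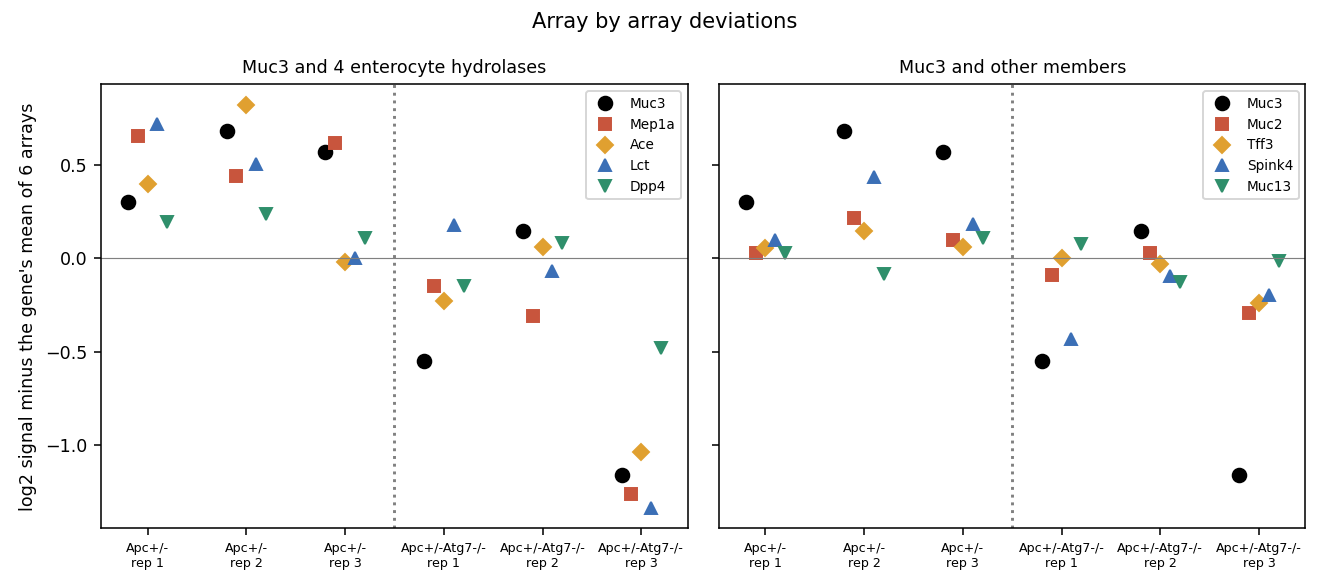
Deviation of the log2 signal from each gene's mean over 6 arrays (y axis), per array (x axis), for Muc3 with 4 enterocyte hydrolase genes (left) and with 4 other members (right). Muc3 lies at -1.16 in Apc+/-Atg7-/- replicate 3, where Mep1a, Ace, Lct and Dpp4 lie at -1.26, -1.04, -1.34 and -0.48. In that array Muc2, Tff3, Spink4 and Muc13 lie at -0.29, -0.24, -0.19 and -0.01. Lct was chosen after its values were seen.

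Further goblet cell products included genes with larger differences than the members. Of 22 listed, 18 were measured, 3 fell by limma over all genes (Itln1, Ang4 and Retnlb; 0.0401% of all genes fell), 0 rose, and 16 were below 0 (56.8% of all genes), with a median of -0.21. Itln1, a lectin for microbial sugars, was 10.20, 9.96 and 10.05 (log2) in Apc+/- and 8.77, 8.96 and 8.77 in Apc+/-Atg7-/- duodenum. It fell by 1.24 (SE 0.10, adjusted p = 0.00311 by limma). Retnlb, a bactericidal goblet cell protein that type 2 cytokines induce, was 6.41, 7.40 and 6.77 in Apc+/- and 4.61, 5.07 and 4.66 in Apc+/-Atg7-/- duodenum. It fell by 2.08 (SE 0.22, adjusted p = 0.00944 by limma). Its Apc+/-Atg7-/- values lay below all values of Muc1, and whether they were above background is not known, which limits the size of that fall. Ang4, an angiogenin-family antimicrobial protein, was lower by the widest margin of the list, with a difference of -2.49 (SE 0.26) at an adjusted p of 0.00944 by limma. Paneth cells make Ang4 too, and it stands on the Paneth marker list as well. Whether Paneth cells contribute to the Itln1 or Retnlb signal was not tested. Without the male array 1 of the 3 passed, Itln1 (adjusted p = 0.0371), with Ang4 at 0.0561 and Retnlb at 0.0663.

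The other products on that list did not pass by limma. Next in size were Reg4, a secreted C-type lectin, at -0.71 (SE 0.15, adjusted p = 0.255) and Ccl6, a chemokine, at -0.54 (SE 0.09, adjusted p = 0.136). In both the genotypes did not overlap, and 5.23% of all genes were lower without overlap. Clca1, a metalloprotease that goblet cells secrete into mucus, was 11.99, 12.21 and 11.74 (log2) in Apc+/- and 11.79, 11.60 and 11.53 in Apc+/-Atg7-/- duodenum. Its arrays overlapped, and the difference of -0.34 (SE 0.13) did not pass by limma (adjusted p = 0.923). Across the 18 genes, the differences ran from -2.49 for Ang4 to 0.20 for Slc12a8, and 9 were lower at an unadjusted p under 0.05 (2.73% of all genes). Reg4, Ccl6, Clca1 and Slc12a8 were named after their values were seen.

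None of the 7 further mucin genes measured, of 9 listed, passed by limma in either direction (0 at an unadjusted p under 0.05). Muc15, a membrane mucin, had the smallest p, with log2 means (SD, n = 3) of 3.91 ± 0.02 in Apc+/- and 4.04 ± 0.07 in Apc+/-Atg7-/- arrays. Its difference was 0.13, with arrays that did not overlap (higher without overlap in 4.81% of all genes) and a signal in the dimmest 25% of genes. Muc5ac, a gel-forming mucin of the stomach surface, differed by -0.13 (SE 0.12) and Muc19, another gel-forming mucin, by -0.11 (SE 0.14). Muc6, the gel-forming mucin of Brunner's glands, was at 6.25 to 6.45 in Apc+/- and 6.31 to 6.46 in Apc+/-Atg7-/- duodenum, and was picked as the defining gene of those glands. Of the 9 genes that mark Brunner's glands and gastric mucous cells, all measured, 0 passed by limma. Their differences ran from -0.29 for Tff2, a trefoil peptide of gastric mucous cells, to 0.09. Gkn1, a gastrokine of the stomach surface, was at -0.18. All of the 9 but Dmbt1 lay below the median brightness of genes, and whether such dim signals were above background is not known.

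Genes that build and fold mucins lay on both sides of 0. Of 30 genes for O-glycosylation and assembly, 0 passed by limma, 18 were below 0 (56.8% of all genes) and 12 above, with a median of -0.05. St3gal1, a sialyltransferase that caps O-glycans, differed by -0.31 (SE 0.12) and B3gnt6, the core 3 synthase of intestinal mucin, by -0.27 (SE 0.11). C1galt1c1, the chaperone of the core 1 synthase, differed by 0.20 (SE 0.08), so the 3 genes of smallest p had no common sign. The genotypes did not overlap in any of the 3, which were picked by smallest p. Their adjusted p by limma was 0.933, 0.936 and 0.947. Over the 30 genes, 3 were lower and 3 higher without overlap, beside 5.23% and 4.81% of all genes. At an unadjusted p under 0.05, 2 of the 30 were lower and 1 higher, beside 2.73% and 2.38% of all genes.

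Regulators of the goblet cell lineage, among them transcription factors of secretory cells, showed small differences. Of 21 such genes, 0 passed by limma and 0 lay at an unadjusted p under 0.05, with differences from -0.19 to 0.17 and a median of -0.02. Xbp1, which drives the secretory apparatus, differed by -0.16 (SE 0.09), Creb3l4, a membrane-bound factor of secretory cells, by 0.17 (SE 0.11) and Cdx2, the intestinal homeobox factor, by -0.19 (SE 0.13). Atoh1, required for all secretory cells, was 7.33 to 7.71 (log2) in Apc+/- and 7.35 to 7.62 in Apc+/-Atg7-/- duodenum, and Spdef, which completes goblet cell maturation, was 7.23 to 7.41 and 7.22 to 7.44. Both ranges overlapped almost wholly, and these genes were picked as the best known regulators of the goblet cell.

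**Figure D4:**
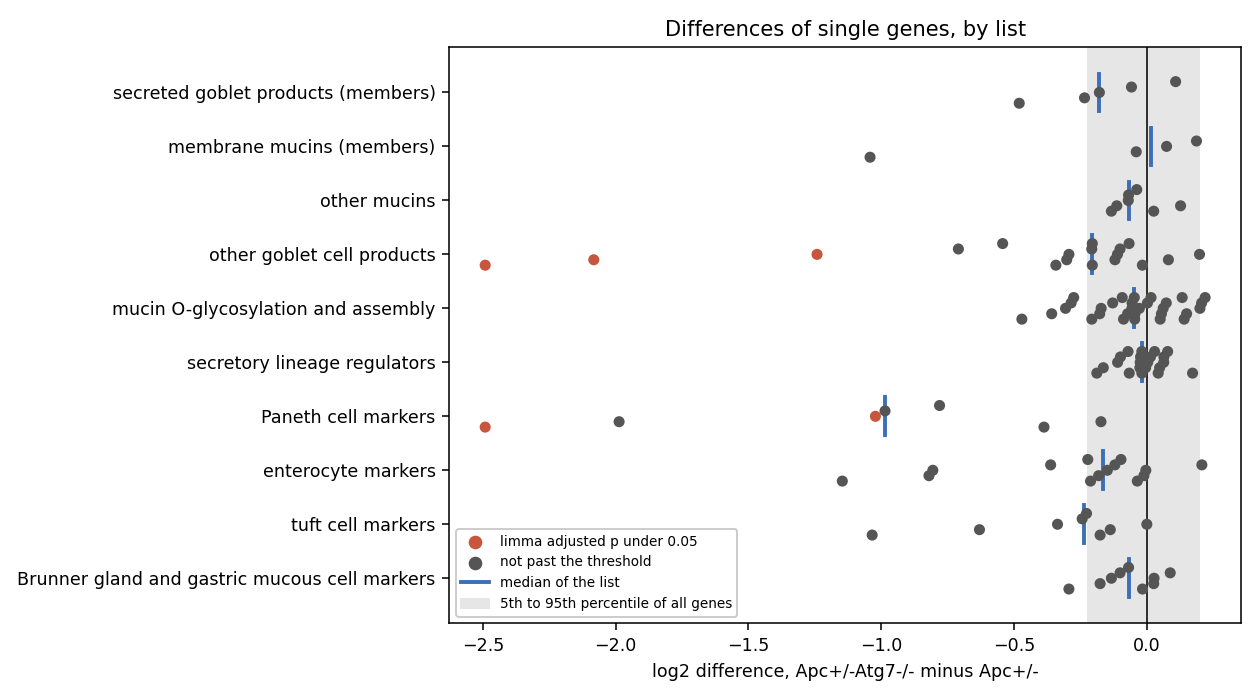
Log2 difference, Apc+/-Atg7-/- minus Apc+/- (x axis), of each measured gene of 10 lists (y axis, vertical jitter without meaning), with the list's median as a blue line and genes past a limma adjusted p of 0.05 in red. The median is -0.18 for the secreted products, -0.21 for other goblet cell products, -0.02 for the lineage regulators and -0.99 for Paneth cell markers.

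Of 12 Paneth cell markers 7 were measured, and 2 fell by limma (Ang4 and Defa24), where 0.0401% of all genes fell. All 7 were below 0 (56.8% of all genes), with a median of -0.99. The same shares of all genes apply to the lists that follow. Ang4 is also on the goblet cell list. Their mean level was 9.70 to 9.77 (log2) in Apc+/- and 8.43 to 8.94 in Apc+/-Atg7-/- arrays, without overlap. Defa24, an alpha-defensin, had a difference of -1.02 (SE 0.13) and an adjusted p of 0.0221 by limma. It did not pass without Apc+/- replicate 1 (0.0775) or 2 (0.102), or without Apc+/-Atg7-/- replicate 1 (0.119) or 3 (0.0787). Without Apc+/-Atg7-/- replicate 1, 0 of the 7 Paneth markers passed. The pentraxin-like Mptx1 stood at -1.99 (adjusted p = 0.0603 by limma). Of 8 tuft cell markers measured, 0 passed and 7 were below 0 (median -0.23), with the tuft cell kinase Dclk1 at -0.63 (SE 0.17), Rgs13 at -1.03 (SE 0.30) and Pou2f3 at -0.24 (SE 0.09). Of 12 mast cell and type 2 immune genes 1 fell, Retnlb, counted above among goblet cell products and lost without Apc+/-Atg7-/- replicate 1, and 9 were below 0, with Mcpt1, a mucosal mast cell protease, at -1.54 (SE 0.29) and Mcpt4 at -0.40 (SE 0.10). The part of Paneth, tuft or immune cells in the goblet cell values was not tested.

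Of the remaining lists, 10 enteroendocrine markers had 0 genes passing and a median of 0.01, with Cck at 0.27, Ghrl at -0.26 and Sst at -0.20. The 8 stem cell markers had 0 passing and a median of -0.003, with Prom1 at -0.24, Olfm4 at 0.18 and Smoc2 at -0.13. All 9 smooth muscle markers were below 0, with 0 passing and a median of -0.36. All 9 were lowest of their genotype in Apc+/-Atg7-/- replicate 2, where Muc3 was highest of that genotype only. Over all arrays Muc3 was highest in Apc+/- replicate 2, and the mean deviation of the smooth muscle markers was highest there too, at 0.41. The mean level of these markers was 8.05 to 8.63 (log2) in Apc+/- and 7.59 to 8.36 in Apc+/-Atg7-/- arrays. Des stood at -0.49, Tagln at -0.33 and Actg2 at -0.65. The part of muscle content in the spread of Muc3 was not tested. Of 10 pancreatic acinar markers measured 1 fell, the colipase gene Clps (-1.03, SE 0.13, adjusted p = 0.0218 by limma), with Cela2a at -0.20 and Try4 at -0.17. Clps passed without Apc+/- replicate 3 (0.0401) but not without Apc+/- replicate 1 (0.0762) or 2 (0.0698), nor without Apc+/-Atg7-/- replicate 1 (0.0755), 2 (0.0583) or 3 (0.0789).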

How the data were processed

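Per the labels' protocols, 100 ng of Trizol-extracted RNA was labelled for an Affymetrix whole-transcript array. What the authors deposited is a table of log2 values, made with RMA and Partek per the submitters' processing notes, which give no version. The base of the log was read from the range, 2.40 to 13.28, since no source used here states it. RMA as usually run equalises arrays, which removes shifts shared by all transcripts. Of 28853 probe sets, 21789 name 1 gene (19938 genes), 1621 name several and 5443 are not listed in the annotation. Symbols were checked through gene identifiers (19855 found, 0 changed). The brightest probe set stood for a gene.

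The main test was limma 3.58.1 under R 4.3.3 (two-sided, Benjamini-Hochberg over 19938 genes, 9.7 degrees of freedom), a script tested on simulated data. P-values measure the spread between samples, since the labels name no animals. The members and lists were chosen with earlier results of these data known. The text names all members and, per list, genes past an adjusted p of 0.05, filled to 3 by smallest p. Genes outside this rule are marked where they appear, apart from tissue, sex and targeted-gene checks. Alternatives were a replicate block, quantile normalization, centring, trend and robust moderation, array weights, a filter on dim genes, mean probe sets and each array left out. Figures used matplotlib 3.10.9.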

Additional observations from a re-analysis of the deposited data

How the results depend on the processing

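Across 7 other settings, not counting arrays left out, 0 members passed and all 9 kept their sign, with Muc3 at -1.06 to -0.99 and Spink4 at -0.49 to -0.45. With arrays left out, members called ran from 0 to 1, genes called over all from 2 to 27 (22 with all arrays), the secreted median from -0.22 to -0.10, the membrane median from -0.02 to 0.06, and other goblet cell products called from 1 to 4. Zg16 ran from -0.14 to 0.050 (0.018 without Apc+/- replicate 1) and Muc13 from -0.090 to 0.014 (0.0062 without Apc+/- replicate 3). Without Apc+/- replicate 1 or 2 or Apc+/-Atg7-/- replicate 1 or 3, genes called were 12, 13, 2 and 12. The membrane median was -0.0063 with array weights. The replicate block raised the genes called to 44 (22 higher, 22 lower), with 0 members among them (Muc3 adjusted p = 0.12, Spink4 0.136). With trend and robust moderation, limma's unadjusted p was 0.0452 for Muc3 (adjusted 0.922) and 0.00078 for Spink4 (adjusted 0.244). In the main fit the unadjusted values were 0.00302 and 0.00303. Whether replicate numbers pair the samples is not known. Deviations of same-numbered arrays correlated at 0.15, -0.07 and 0.24, and those of different-numbered arrays at -0.31 to 0.18, which does not settle it. Counts of members below 0 and apart, and of other goblet cell products, were added after seeing the data. Signal over background was not available, which limits dim signals such as that of Muc1 and, in Apc+/-Atg7-/- arrays, those of Retnlb, Mptx1 and Mcpt1.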
